A study of Capra hircus with 6 samples.

Results

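Insulin and the insulin-like growth factors act through receptor tyrosine kinases, docking proteins and the lipid kinase PI3K, which leads to the protein kinase AKT and to mTOR, the kinase complex that couples nutrients to protein synthesis. In the mammary gland this pathway is known for its part in milk protein synthesis, glucose use and cell survival. IGF binding proteins, made by the gland itself, hold IGFs in the tissue fluid and limit their access to the receptor.

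The regions described here are all rows of the authors' table of differential ATAC-seq regions with their centre inside, or within 50000 bp of an end of, 1 of 41 goat genes of this pathway. The 41 genes, all protein-coding, held 264 such regions of the 30714 in the table. ATAC-seq marks open chromatin by the cuts of the Tn5 transposase. The libraries came from mammary epithelial cells of goats (*Capra hircus*), with 3 from the dry period and 3 from lactation. Their labels number them 1, 2 and 3 for the dry period and 1, 2 and 5 for lactation. These labels name no other treatment, breed, age or genotype. The labels do not say whether libraries of 1 period came from separate goats, so the authors' p-values cover no more than the differences among these libraries, and these may be technical. No value per library was used here, so the identity of the cells could not be checked against markers, read depth is unknown, and no fold change below has an error of its own.

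The table splits its regions by name into 2 sets, called set 1 (22884 regions) and set 2 (7830). Fold changes are linear ratios above 1 in both, so a set is read here as the regions more open in 1 of the periods. Which period belongs to which set is not stated: if the numbering follows the order of libraries in the table's title, set 1 is the dry period. Directions are therefore given by set. A region is called differential below when its Benjamini-Hochberg false discovery rate (FDR) in the table is under 0.05. Distances run from the centre of a region to the nearer end of the gene, and starts of genes could not be told from their far ends, because the gene table used gives no strand. The build of the coordinates is not stated in the table.

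Differential regions were common at these genes, and most were in set 1. Of the 41 genes, 31 had a called region (75.6%), against 51.4% of all 19063 protein-coding genes on chromosomes 1 to 29. A set 1 region was called at 28 genes (68.3%, against 48.9% of all genes) and a set 2 region at 8 (19.5%, against 5.06%). Both sets were called at 5 genes (12.2%, against 2.53%): *IGF1R*, *PIK3R3*, *SGK1*, *TSC1* and *TSC2*. The genes with set 2 alone were *IGFBP7*, *RHEB* and *RPS6KB2*. At 39 genes at least 1 region was listed (95.1%, against 79.7%). The remaining members, *IGF1* and *PIK3CA*, had none. There were 5 or more called regions at 7 genes (17.1%, against 5.33% of all genes): *IGFBP3*, *IGFBP6*, *AKT1*, *FOXO3*, *GSK3A*, *SGK1* and *TSC2*.

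**Figure D1:**
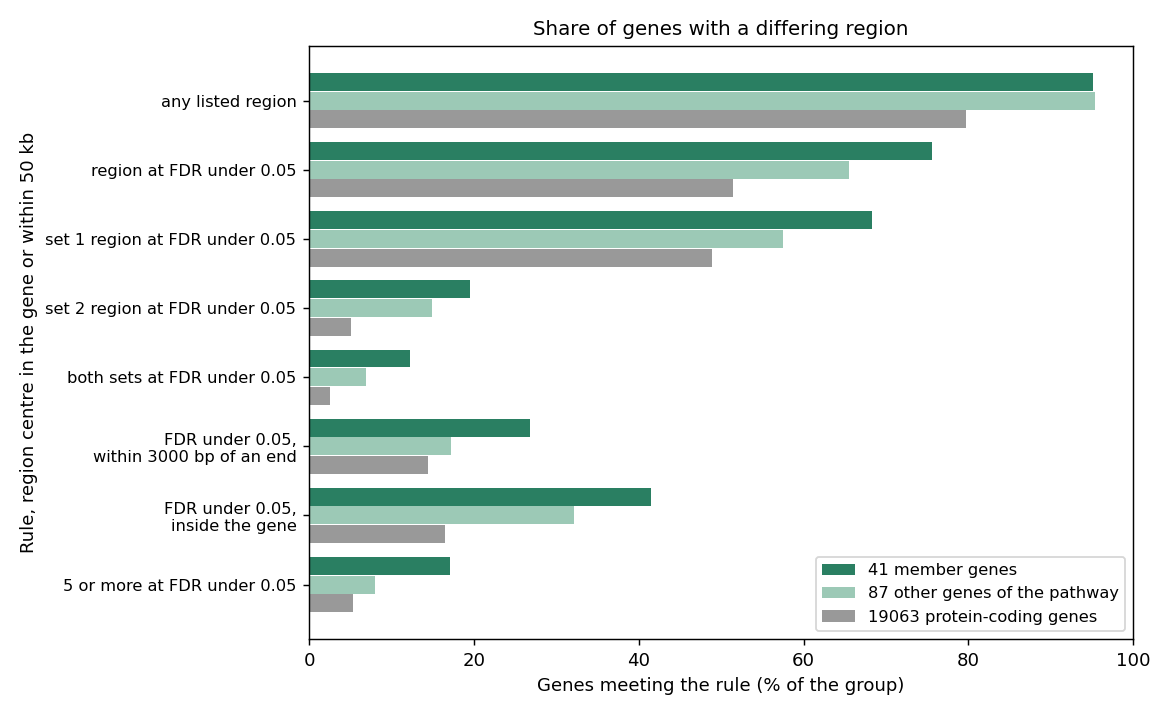
Bars give the percent of genes that meet each rule, on the horizontal axis, for the 41 genes described here, 87 other genes of the pathway and all 19063 protein-coding genes. For each rule the 41 genes sit above all genes, from 95.1% against 79.7% for any listed region to 12.2% against 2.53% for called regions of both sets.

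Longer genes have wider windows. Over all protein-coding genes the share with a called region hardly moved with gene length, while the share with a called set 2 region was higher for longer genes. The median length was 63.8 kb for the 41 genes and 17.8 kb for all protein-coding genes. Among genes of 60 kb or more, 15 of 22 members had a called region (68.2%), against 51.1% of all such genes, and 4 had one of set 2 (18.2%, against 8.33%). Among those of 20 to 60 kb the counts were 9 of 12 (75%, against 51.3%) and, for set 2, 3 (25%, against 5.29%). All 7 members under 20 kb had a called region, against 51.6% of all genes so short, and 1 had one of set 2 (14.3%, against 3.6%). Per 100 kb of window, the median member held 0.887 called regions (interquartile range 0.356 to 1.97) and the median gene 0.329 (0 to 1.13). The members were chosen as pathway genes with earlier results of these data known, and no test was run on the list.

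Among called regions the share of set 1 was close to that over all regions, while among listed regions it was higher. Of the 264 listed regions 86.4% were in set 1 (95% Wilson interval for counting error 81.7% to 90%), against 74.4% of all listed regions on chromosomes 1 to 29. The latter include regions farther than 50000 bp from any protein-coding gene, which the 264 by rule do not. Of the 26413 within that distance of a gene, 20231 were in set 1. Of the members' 264 regions, 85 were called (32.2%, against 27.8% of all 29978 on chromosomes 1 to 29). Of the 85, 77 were in set 1 (90.6%, with a 95% Wilson interval for counting error of 82.5% to 95.2%), against 91.5% of all called regions. The interval for called regions holds the value over all called regions. In set 1, 33.8% of the members' 228 listed regions were called, close to 34.2% over all set 1 regions. In set 2, 8 of 36 were called (22.2%), against 9.24% of all set 2 regions. Fold changes were close to those of all regions in set 1 and lower in set 2. Called set 1 regions had a median of 2.24 by the authors' deposited table (range 1.37 to 5.12), against 2.32 over all set 1 regions called. For set 2 the authors' deposited table gave 3.00 (2.05 to 5.71), against 3.53. Their median width was 400 bp in set 1, as over all called set 1 regions, and 550 bp in set 2, against 500 bp.

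**Figure D2:**
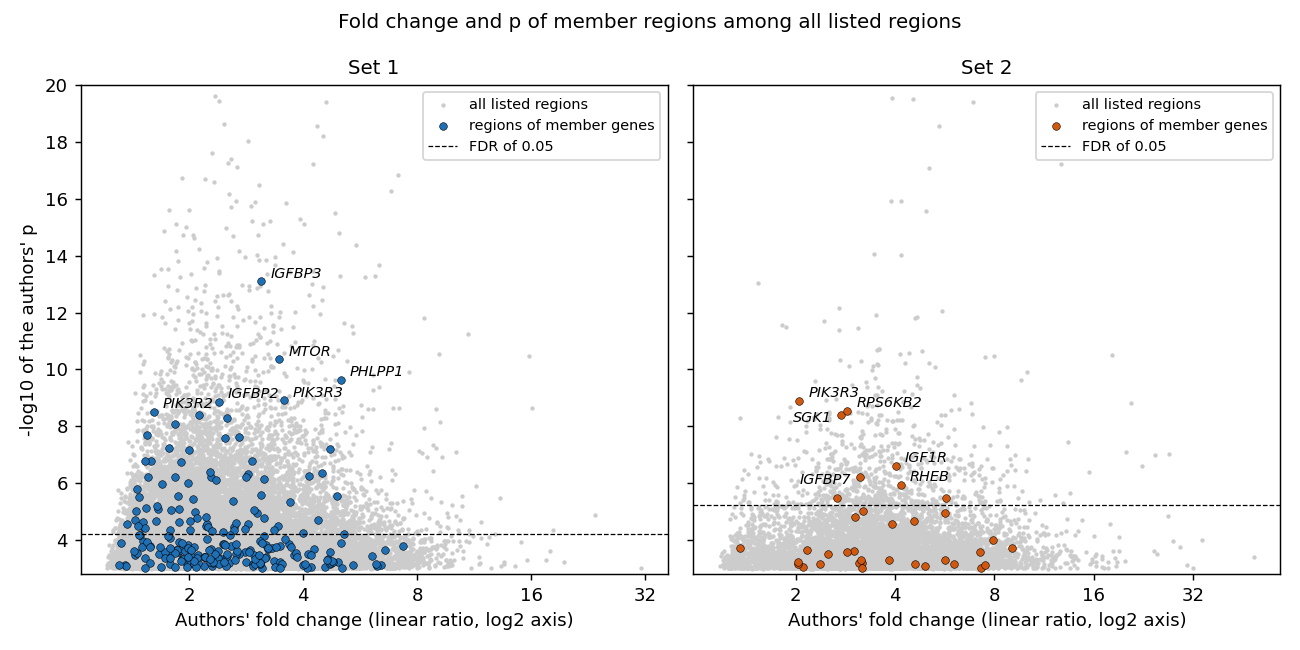
Points are regions, with the authors' fold change on the horizontal log2 axis and the −log10 of their p on the vertical axis, for set 1 and set 2. Member regions (coloured, the 6 lowest p of each set named) lie within the cloud of all listed regions (grey), led by *IGFBP3* and *MTOR* in set 1 and *PIK3R3* in set 2, and 11 grey regions above 20 are not drawn.

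A window of 50000 bp reaches neighbouring genes, and 46 of the 85 called regions had another protein-coding gene as the nearest one. For 20 of the 41 genes a called region had the member as its nearest gene (48.8%, against 25.8% of all genes by the same rule). Within 3000 bp of an end, 11 genes had a called region (26.8%, against 14.4%), and 17 had one inside the gene (41.5%, against 16.5%). The 11 were *INSR*, *IGFBP2*, *IGFBP3*, *IGFBP6*, *PIK3R3*, *PDPK1*, *AKT1*, *FOXO3*, *SGK1*, *TSC1* and *TSC2*. Measured to any protein-coding gene, 37 of the 77 set 1 regions lay within 3000 bp of an end (48.1%, against 38.3% of all called set 1 regions near genes), and 1 of the 8 set 2 regions (12.5%, against 13.5%).

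**Figure D3:**
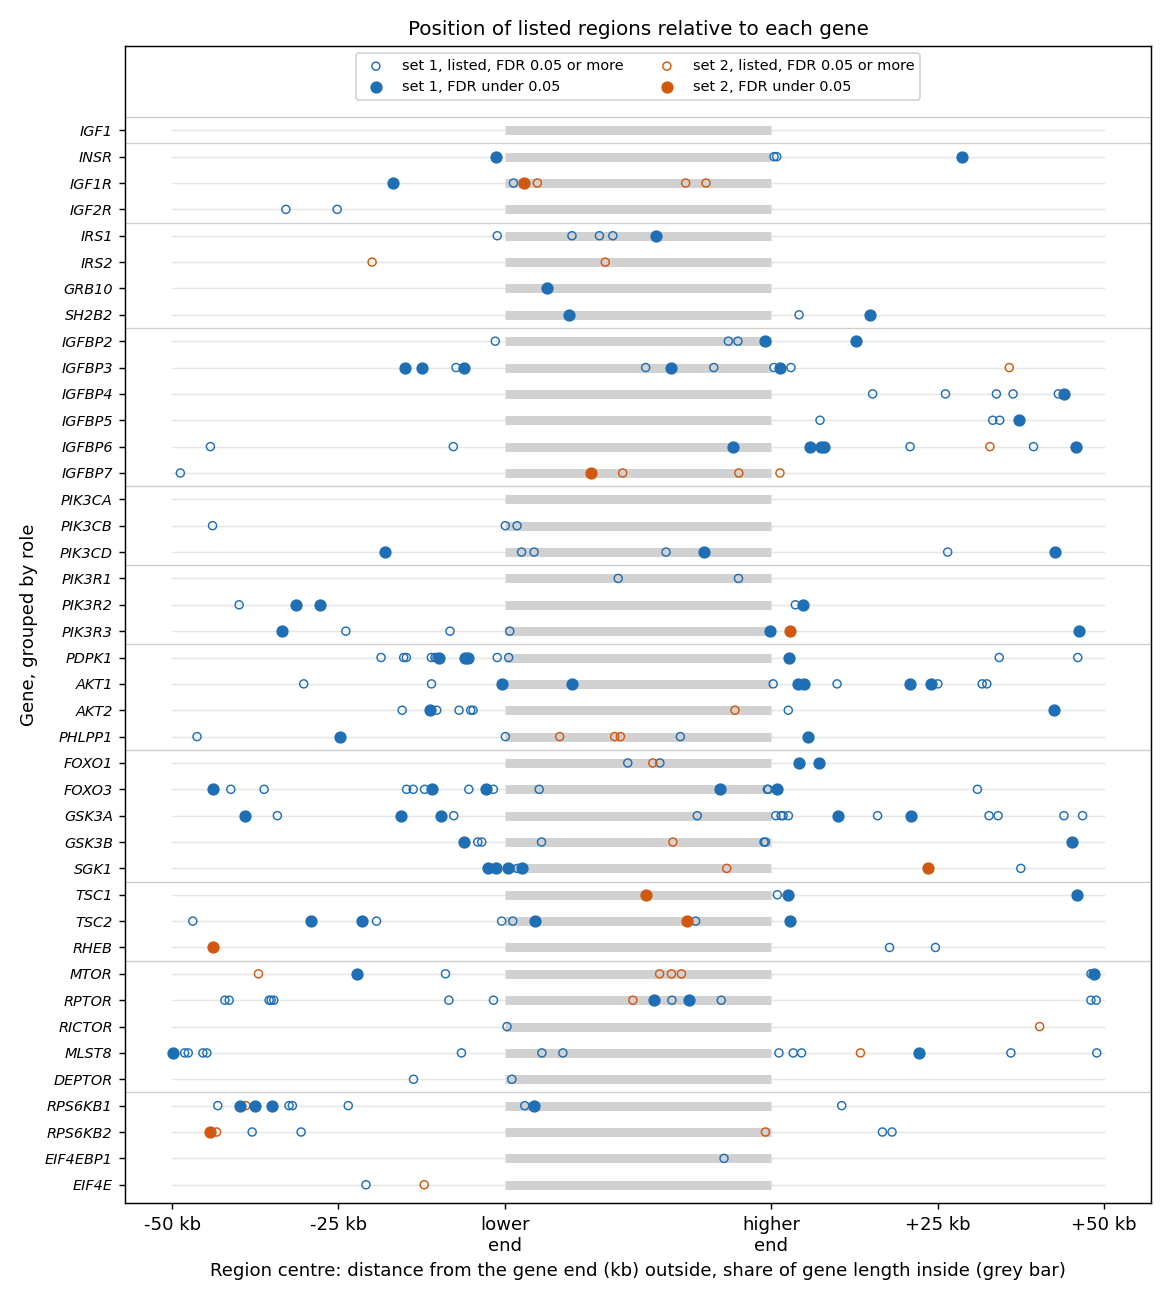
Each row is a gene, with region centres placed by distance in kb outside its ends and by share of gene length inside (grey bar), filled where the FDR is under 0.05. Set 1 (blue) crowds near 1 end at *SGK1* and *PDPK1*. Inside each of *IGF1R*, *IGFBP7*, *MTOR* and *PHLPP1* lie 3 or more set 2 regions (orange), with 1 more outside *IGFBP7* and 1 outside *MTOR*.

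The ligand gene and the receptors differed in what was listed. *IGF1*, the growth factor that the liver and the gland make under growth hormone, had no listed region within 241.2 kb. *INSR*, the insulin receptor, had 4 listed regions, all in set 1. Its leading region lay 1266 bp outside 1 end (chromosome 7, 95920501 to 95921100), where the authors' deposited table gave a fold of 2.86 (p = 4.86e-07, FDR = 0.00178). A second called region lay 28695 bp beyond the other end, at a fold of 1.54 by the authors' deposited table (FDR = 0.0363).

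At *IGF1R*, the receptor of IGF1, most listed regions were in set 2, with 4 of 6. The region with the lowest p lay inside the gene, 22094 bp from an end (chromosome 21, 7060301 to 7060900), at a set 2 fold of 4.02 (FDR = 0.00559) in the authors' deposited table. The other set 2 regions were also inside the gene and missed the limit, with folds of 3.04, 3.91 and 4.56 (FDR = 0.0963, 0.132 and 0.117) in the authors' deposited table. The called set 1 region lay outside, 16856 bp beyond an end (chromosome 21, 7021401 to 7021900), at a fold of 3.15 by the authors' deposited table (FDR = 0.021). A second set 1 region lay inside *IGF1R*, 9844 bp from an end, at a fold of 1.73 and an FDR of 0.123 in the authors' deposited table, so it was not called. *IGF2R*, which clears IGF2 and sorts lysosomal enzymes, had 2 listed set 1 regions and none called; the lower FDR was 0.164 in the authors' deposited table.

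Among the proteins that dock at the receptors, set 1 was called at 3 of 4 genes (against 48.9% of all genes). *IRS1*, a docking protein that recruits PI3K, had 5 listed regions, all in set 1, with the called one inside the gene (chromosome 2, 20768201 to 20768700). Its fold in the authors' deposited table was 4.92 (p = 2.91e-06, FDR = 0.0063), above 95.4% of all called set 1 regions. *IRS2*, its relative, had 2 listed regions, both in set 2, and was the 1 member whose listed regions were all of set 2. Their folds of 4.95 and 7.27 in the authors' deposited table came with FDRs of 0.775 and 0.838, so neither was called. *GRB10*, an adaptor that restrains the insulin receptor, had 1 listed region, inside the gene (chromosome 4, 115207901 to 115208200), with a set 1 fold of 2.01 from the authors' deposited table (FDR = 0.0394). *SH2B2*, an adaptor of the active insulin receptor, had a called set 1 region inside (chromosome 25, 35588801 to 35589000), at a fold of 2.22 by the authors' deposited table (FDR = 0.0315). A second one, 14901 bp outside, was nearest to *CUX1* and had a fold of 1.66 by the authors' deposited table (FDR = 0.0129).

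All 6 IGF binding protein genes had a called region (against 51.4% of all genes), 5 of them in set 1 and *IGFBP7* in set 2. The called regions numbered 14, with folds from 1.70 to 3.36 in the authors' deposited table. *IGFBP3*, the main carrier of IGFs in blood, held 11 listed regions and 5 called ones over a gene of 6.8 kb, all called ones in set 1. The lowest p of any of the 264 regions lay 14987 bp from it (chromosome 4, 44042701 to 44043700). The authors' deposited table gave a fold of 3.10 there (p = 8e-14, FDR = 6.97e-09), the p of rank 81 among the 22884 set 1 regions. It is 1000 bp wide. The nearest protein-coding gene is *IGFBP1*, another IGF binding protein, 2633 bp away, and the called regions at 12387 and 6087 bp from *IGFBP3* are nearest to *IGFBP1* too. Inside *IGFBP3* (chromosome 4, 44062301 to 44062600) the fold was 1.70 by the authors' deposited table (FDR = 0.0032), and 1279 bp beyond its other end it was 1.83 (FDR = 0.00211). Those called regions closest to *IGFBP3* had smaller folds than the 2.94 and 3.10 of 2 of the regions toward *IGFBP1*, while the third there had 2.05 in the authors' deposited table. Regions that were not called had larger folds there, with 3.68 and 5.03 inside *IGFBP3* (FDR = 0.0809 and 0.0765) and 6.08 at 2979 bp outside (FDR = 0.151) in the authors' deposited table.

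*IGFBP2* and *IGFBP5*, which lie side by side on chromosome 2, shared 4 listed set 1 regions, 1 of them called. That region lies in *IGFBP2*, 689 bp from its end (chromosome 2, 31177901 to 31178200), and 37298 bp from *IGFBP5*, with a fold of 2.87 (FDR = 0.0291) in the authors' deposited table. *IGFBP5*, whose product is known to rise in the involuting rodent gland, had no other called region. A wider *IGFBP2* region, 12711 bp outside (chromosome 2, 31191101 to 31191800), had a fold of 2.39 (p = 1.37e-09, FDR = 2.12e-05) in the authors' deposited table. *IGFBP4* had its only called region 44001 bp away, nearest to *TNS4* (chromosome 19, 40374301 to 40374800), with a fold of 1.83 by the authors' deposited table (FDR = 8.58e-05).

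*IGFBP6*, which prefers IGF2, had 5 called regions in set 1. The one with the lowest p lay inside the gene, 522 bp from an end (chromosome 5, 26612701 to 26613400), at a fold of 1.91 (FDR = 0.000859) in the authors' deposited table. Its remaining called regions were nearest to *SPRYD3* or *EIF4B*. *IGFBP7*, a binding protein of low affinity for IGFs that is also found in vessel walls, differed in set: 4 of its 5 listed regions were in set 2, 3 of them inside the gene. The called one lay 26094 bp from an end (chromosome 6, 73024401 to 73024700), with a set 2 fold of 3.14 by the authors' deposited table (p = 5.87e-07, FDR = 0.0106). The next by p, also inside the gene, had a larger fold of 5.68 in the authors' deposited table, at an FDR of 0.0753.

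Of the 3 PI3K catalytic subunits only *PIK3CD*, the form most abundant in leukocytes, had a called region (against 51.4% of all genes). Its leading region lay inside the gene (chromosome 16, 42322001 to 42322500), with a set 1 fold of 1.58 by the authors' deposited table (FDR = 0.000796). The other 2 called regions of *PIK3CD*, outside it, were nearest to *CLSTN1* and *TMEM201*. *PIK3CA*, which encodes the widely expressed alpha subunit, had no listed region within 83.3 kb. *PIK3CB*, the beta subunit, had 3 listed set 1 regions and none called. One of these lay 283 bp inside an end, at a fold of 1.35 and an FDR of 0.229 in the authors' deposited table.

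The regulatory subunits, which hold the catalytic subunit and bring it to the receptor, differed from each other. *PIK3R1*, the main one in most tissues, had 2 listed regions inside the gene and none called, with FDRs of 0.192 and 0.202 in the authors' deposited table. *PIK3R2* had 3 called set 1 regions, all outside and nearest to *IFI30* or *MAST3*. The leading one, 4739 bp away (chromosome 7, 103740701 to 103741600), had a fold of 1.62 by the authors' deposited table (FDR = 4.06e-05). *PIK3R3* had called regions of both sets at 1 end. Just inside that end, at 533 bp, lay a set 1 region of 200 bp (chromosome 3, 20799001 to 20799200) with a fold of 5.12 in the authors' deposited table. Its FDR of 0.0497 was the closest to the limit of all called member regions. Outside the same end, at 2767 bp, lay a set 2 region 1200 bp wide (chromosome 3, 20801801 to 20803000), which the authors' deposited table put at a fold of 2.05 (p = 1.28e-09, FDR = 0.000121). Its p ranked 64 among the 7830 set 2 regions. The lowest p at *PIK3R3* belonged to a set 1 region 33443 bp beyond the other end and 1600 bp wide, nearest to *MAST2* (chromosome 3, 20661501 to 20663100), with a fold of 3.56 from the authors' deposited table (FDR = 1.91e-05).

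AKT, its activating kinase and the phosphatase that reverses it were all called, in set 1 alone, with 14 regions at 4 genes. Over all protein-coding genes, 48.9% had a called set 1 region. *PDPK1*, which phosphorylates AKT, had 14 listed regions, all in set 1. Its leading region lay 2722 bp from an end (chromosome 25, 1999201 to 1999600), nearest to *KCTD5*, at a fold of 2.13 (FDR = 5.02e-05) in the authors' deposited table. The other 3 called regions lay 5552 to 9852 bp beyond the opposite end, nearest to *AMDHD2*, with folds of 2.24, 2.25 and 2.61 in the authors' deposited table. *AKT1* had the most called regions of any member, 6, all in set 1. The region with the lowest p was 424 bp outside an end (chromosome 21, 68633901 to 68634500), with a fold of 1.55 by the authors' deposited table (p = 1.96e-08, FDR = 0.000161). Inside *AKT1*, 5376 bp from that end, a region with a larger fold of 3.10 in the authors' deposited table was also called (chromosome 21, 68639801 to 68640200, FDR = 0.00578). The remaining 4, nearest to *ZBTB42*, had folds between 1.37 and 1.80 in the authors' deposited table, so most *AKT1* regions had small folds.

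*AKT2*, the AKT form tied to glucose uptake, had 2 called regions, neither nearest to it. In the authors' deposited table the closer, 11236 bp away (chromosome 18, 50510101 to 50510700), had a fold of 1.53 (FDR = 0.000799). The other, 42481 bp away (chromosome 18, 50613201 to 50614000), had a fold of 2.52 (FDR = 6e-05) in the authors' deposited table and was nearest to *PLD3*. *PHLPP1*, which dephosphorylates AKT, has no other protein-coding gene in its window. A set 1 region 5560 bp outside it (chromosome 24, 61462701 to 61463300) reached a fold of 5.03 (p = 2.33e-10, FDR = 5.17e-06) in the authors' deposited table, above 95.8% of called set 1 regions. The set 2 regions listed for *PHLPP1* were 3, all inside the gene; the highest fold of any member region, 9.06 in the authors' deposited table, was among them, at an FDR of 0.404.

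The kinases and transcription factors downstream of PI3K were all called too, with 18 regions in set 1 and 1 in set 2. Each of the 5 genes had a called set 1 region, against 48.9% of all genes. *FOXO1* and *FOXO3* encode transcription factors that AKT keeps out of the nucleus. *FOXO1* had 2 called set 1 regions outside the same end, at 4137 and 7187 bp (chromosome 12, 64781901 to 64782200 and 64784801 to 64785400). Their folds were 4.39 (FDR = 0.0234) and 4.14 (FDR = 0.00197) in the authors' deposited table. *FOXO3* had 16 listed regions, all in set 1, of which 5 were called, and it was the nearest protein-coding gene of all 5. The lowest p lay 2822 bp outside an end (chromosome 9, 28789601 to 28790300), with a fold of 4.72 (FDR = 0.000393) in the authors' deposited table. Inside *FOXO3* the called region had a fold of 2.28 (chromosome 9, 28892301 to 28892600, FDR = 0.00214) by the authors' deposited table. Another, 899 bp beyond the far end, had 2.01 (FDR = 0.0251) in the authors' deposited table. Among the called regions, folds at *FOXO3* were larger for those 2822 and 10922 bp off 1 end (4.72 and 3.69 in the authors' deposited table) than for those inside, at the other end and 43822 bp away (2.28, 2.01 and 1.47). Regions that were not called did not keep to this order: a region inside had a fold of 4.26 (FDR = 0.103) and a region 5422 bp off the first end had 2.06 (FDR = 0.0957) in the authors' deposited table.

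The glycogen synthase kinases, which AKT inhibits, had called regions only outside the genes, each nearest to a neighbour. *GSK3A* had 17 listed regions, the most of any member, all in set 1, and 5 called. The closest, at 9581 bp (chromosome 18, 51914101 to 51914500), had a fold of 1.54 (FDR = 0.0119) in the authors' deposited table, and the one with the lowest p, at 15581 bp (chromosome 18, 51908001 to 51908600), had 2.36 (FDR = 0.0025). Both were nearest to *ERF*. At *GSK3B* the closer of 2 called set 1 regions lay 6172 bp outside (chromosome 1, 64328201 to 64328600), nearest to *NR1I2*, with a fold of 2.83 by the authors' deposited table (FDR = 0.00206).

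*SGK1*, a kinase related to AKT and known to be induced by glucocorticoids, had no other protein-coding gene in its window and 5 called regions. All 4 called set 1 regions clustered at 1 end, from 2471 bp outside to 7179 bp inside. From outside to inside the authors' deposited table gave folds of 4.50 (FDR = 0.00169), 2.64 (FDR = 0.0348), 3.44 (FDR = 0.0329) and 1.87 (FDR = 0.00614). The outermost is at chromosome 9, 59390801 to 59391200, and the innermost at 59400501 to 59400800. The called set 2 region lay past the opposite end, 23515 bp outside (chromosome 9, 59529401 to 59530400), and had the lowest p at this gene, with a fold of 2.74 (p = 3.99e-09, FDR = 0.000281) in the authors' deposited table. A further set 2 region inside *SGK1* missed the limit, with a fold of 3.21 and an FDR of 0.0709 in the authors' deposited table. Past the same end as the called set 2 region, 37515 bp outside, a set 1 region was listed at a fold of 2.51 (FDR = 0.236) in the authors' deposited table and was not called.

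**Figure D4:**
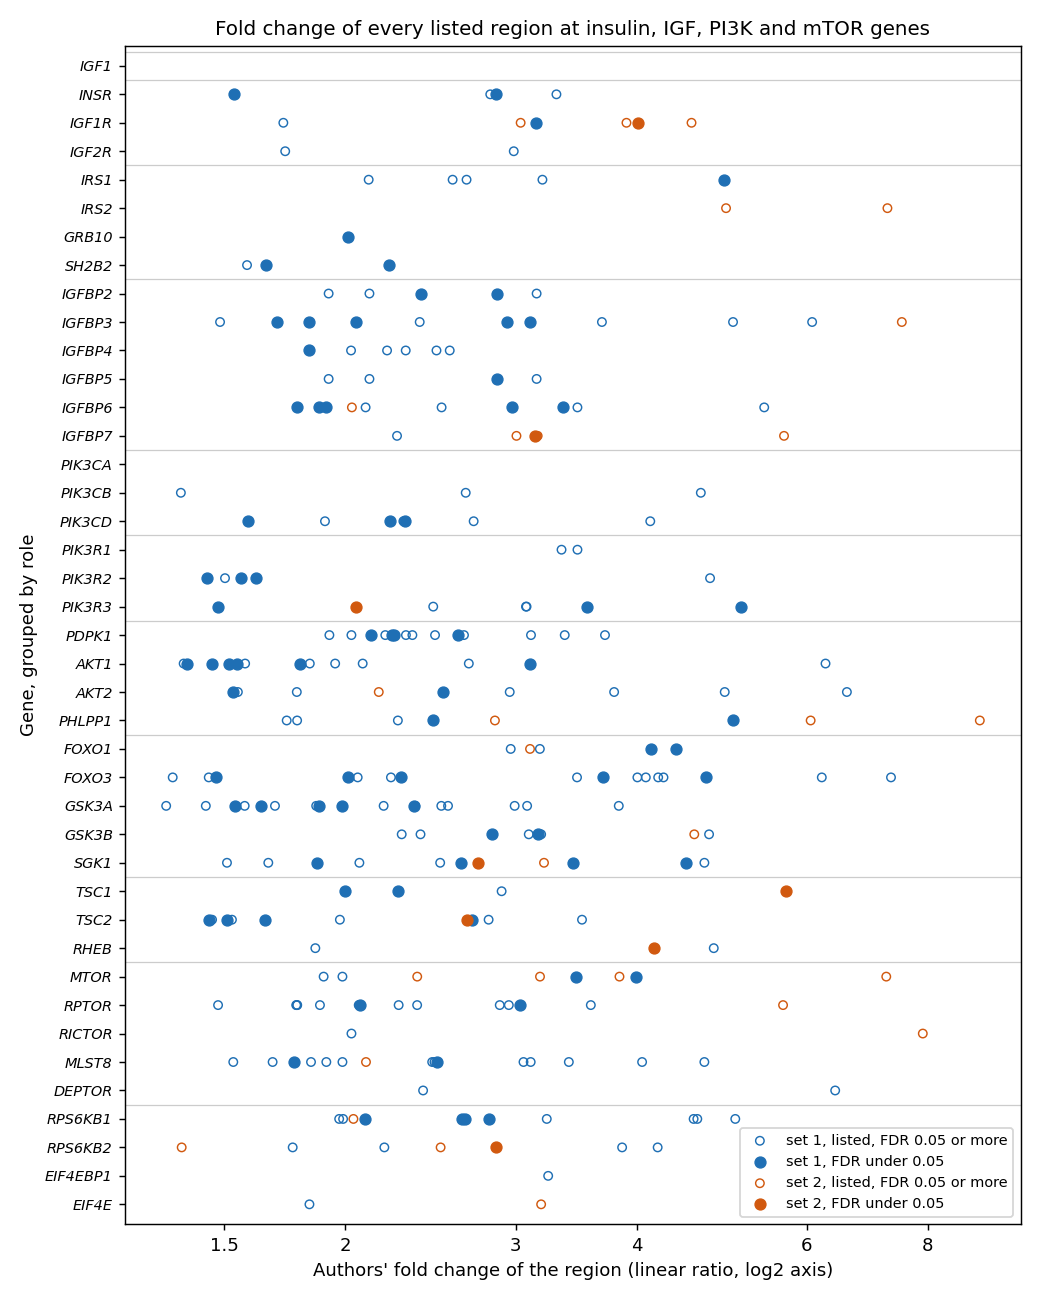
Each point is a listed region, with the authors' fold change on the horizontal log2 axis and the gene on the vertical axis, filled where the FDR is under 0.05. Called set 1 folds (blue) run from 1.37 at *AKT1* to 5.12 at *PIK3R3*, and called set 2 folds (orange) from 2.05 at *PIK3R3* to 5.71 at *TSC1*.

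The TSC1 and TSC2 proteins form the complex that holds RHEB inactive, and RHEB, a small GTPase, switches on mTOR complex 1. All 3 of their genes had a called set 2 region (against 5.06% of all genes), the only role group in which every gene did. Inside *TSC1*, 24466 bp from an end (chromosome 11, 102398901 to 102399300), the authors' deposited table gave a set 2 fold of 5.71 (p = 3.37e-06, FDR = 0.0356), above 84.3% of called set 2 regions. A set 1 region lay 2584 bp outside *TSC1* (chromosome 11, 102425901 to 102426400), at a fold of 2.0 by the authors' deposited table (FDR = 0.000413). Inside *TSC2* regions of both sets were called. The set 1 region, 3515 bp from 1 end (chromosome 25, 1507801 to 1508400), had a fold of 2.71 (FDR = 0.000188) in the authors' deposited table, and the set 2 region, 9763 bp from the other (chromosome 25, 1525301 to 1525800), had 2.67 (FDR = 0.0354). The 2 folds at *TSC2* were thus nearly equal in size and in opposite sets. *RHEB* had its called set 2 region 43880 bp away (chromosome 4, 5764201 to 5764700), inside *PRKAG2*, a subunit of the energy-sensing kinase AMPK, with a fold of 4.17 by the authors' deposited table (FDR = 0.0172). Set 2 FDRs of 0.0354 and 0.0356 are close to the limit, and at an FDR under 0.01 none of these 3 genes had a called set 2 region.

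Among the mTOR complex genes, 3 of 5 had called regions, all in set 1, against 48.9% of all genes with a called set 1 region. Only *RPTOR* was the nearest protein-coding gene of its called regions, and those of *MTOR* and *MLST8* were nearest to other genes. *MTOR*, the kinase itself, had its leading region 22220 bp outside (chromosome 16, 40867301 to 40867900). The authors' deposited table gave a fold of 3.46 there (p = 4.41e-11, FDR = 1.36e-06), the second lowest p among member regions. Inside *MTOR* there were 3 listed regions, all in set 2 and none called, with folds of 2.37, 3.18 and 3.84 and FDRs of 0.635 or more in the authors' deposited table. *RPTOR*, the scaffold of mTOR complex 1, had 14 listed regions. Both called ones were in set 1 and deep inside the gene (chromosome 19, 51231201 to 51231500 and 51273701 to 51274000), with folds of 2.07 (FDR = 0.0152) and 3.03 (FDR = 0.0158) in the authors' deposited table.

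*MLST8*, a subunit shared by both mTOR complexes, is 3.8 kb long and has 8 other protein-coding genes in its window. It had 15 listed regions, and both called ones were far off, at 22174 and 49871 bp. The closer (chromosome 25, 1669201 to 1670100) had a set 1 fold of 1.77 (FDR = 0.000376) and the farther (chromosome 25, 1593601 to 1594000) 2.49 (FDR = 0.000201) in the authors' deposited table. *RICTOR*, which defines mTOR complex 2, and *DEPTOR*, an inhibitor of both complexes, had 2 listed regions each and none called. The lowest FDRs were 0.209 at *RICTOR* and 0.217 at *DEPTOR* in the authors' deposited table.

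Of the 4 genes grouped here with the targets of mTOR complex 1, 2 had a called region, against 51.4% of all protein-coding genes. These were the S6 kinase genes, while *EIF4EBP1* and *EIF4E* had none. *RPS6KB1* had 4 called regions in set 1. The one with the lowest p lay inside it, 4571 bp from an end (chromosome 19, 10472701 to 10473300), with a fold of 2.10 by the authors' deposited table (FDR = 0.0211). The other 3 lay 34929 to 39729 bp away, nearest to *VMP1*. *RPS6KB2* had a called set 2 region 44316 bp away, nearest to *MACROD1* (chromosome 29, 42716501 to 42717100), at a fold of 2.87 (p = 2.91e-09, FDR = 0.000228) in the authors' deposited table. Inside *RPS6KB2*, 132 bp from an end, a set 2 region was listed at a fold of 1.35 and an FDR of 0.405 in the authors' deposited table. *EIF4EBP1*, the repressor of cap-dependent translation, had 1 listed region and *EIF4E*, the cap-binding protein it holds, had 2. Their lowest FDRs were 0.105 and 0.247 in the authors' deposited table, so neither was called.

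Set 2 regions lay mostly inside the genes. Of the 36 listed set 2 regions, 22 were inside the member (61.1%), against 57 of 228 in set 1 (25%). Gene length was not taken into account in these 2 shares, and they were not computed over all genes. Measured to any protein-coding gene, 77.8% of the members' set 2 regions and 55.3% of their set 1 regions were inside a gene, against 66.5% and 58.6% of all listed regions near genes. Set 2 was listed at 21 of the 41 genes (51.2%, against 37.6% of all genes). At *IGF1R*, *IGFBP7*, *MTOR*, *PHLPP1* and *RPS6KB2* there were 3 or more (12.2% of members, against 5.29% of all genes). Of these 5 genes, *MTOR* and *PHLPP1* had no set 2 region with an FDR under 0.05.

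Some regions lay close to the limits of distance and FDR, and they differed in fold. At 49871 bp *MLST8* had a called region, with a fold of 2.49 and an FDR of 0.000201 in the authors' deposited table. At 50157 bp, just too far, *MTOR* had a listed region with a fold of 1.63 and an FDR of 0.146 in the authors' deposited table. That region would not have been called. The farther of the 2 called *MTOR* regions (48557 bp away) had a fold of 3.99 and an FDR of 0.0479 in the authors' deposited table. The region closest to being called was 429 bp from *IGFBP3*, at a fold of 1.48 and an FDR of 0.0509 in the authors' deposited table.

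Of a further 87 genes of the pathway, 57 had a called region (65.5%, against 51.4% of all genes). A set 1 region was called at 50 (57.5%, against 48.9%), a set 2 region at 13 (14.9%, against 5.06%) and both at 6 (6.9%, against 2.53%). These genes and the 41 members are not independent, since windows overlap, and the difference between the lists was not tested. The 131 called regions were 89.3% set 1, with a median fold of 2.26 in the authors' deposited table. By lowest p the leading genes included *SOCS3*, a cytokine and insulin signal inhibitor (1.92), *PRKAG2* (1.87) and *IGFBP1* (3.10), all set 1 folds in the authors' deposited table. Also among them were the translation factor gene *EIF4B* (1.88), the phosphatase gene *PTPN1* (1.79), *PIK3IP1*, a PI3K inhibitor (2.36), and the elongation factor gene *EEF2* (1.80), again set 1 folds from the authors' deposited table. *IGFBP1* and *IGFBP3* have the same 5 called regions, and the one of lowest p is nearest to *IGFBP1*. The 5 called regions of *IGFBP6* are all among the 8 of *EIF4B*, but the leading *EIF4B* region, 5412 bp away, is not shared. *PRKAG2* shares its set 2 region with *RHEB*. Set 2 alone was called at 7 genes. Those named here, after their values were seen, are *PAPPA*, a protease that frees IGFs from binding proteins, *THEM4*, *TBC1D4*, *PRR5*, *PRKAA1* and *TELO2*. *PAPPA* had the lowest p of these, from a region inside the gene (chromosome 8, 105128901 to 105129400) with a set 2 fold of 4.19 by the authors' deposited table (FDR = 0.000367).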

How the data were processed

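The authors deposited 1 table of differential ATAC-seq regions from 3 dry period and 3 lactation libraries. Per the file headers it gives position, width (another unit, bp), a signal value (a score, not used here), a linear fold change (a ratio), a p-value and a Benjamini-Hochberg FDR (a q-value) per region; all listed p-values are under 0.001. Bowtie2 (2.2.5) and MACS2 are listed, without a role, per the submitters' processing notes. The differential caller, the build and the filters were not given in the sources used here. Each main sequence was matched to the chromosome whose protein-coding gene ends (RefSeq ARS1.2 table) its regions lay within 1000 bp of most often: this gave 29 different chromosomes. The other sequences hold 736 regions and were left out. All 41 members and 87 of 91 further pathway genes matched a gene on these chromosomes by symbol. Regions were placed by their centre with Python 3.11.15 and pandas 2.3.3. Placement was checked on simulated regions. Members and lists were chosen with earlier results of these data known. Calls are the authors' FDR under 0.05, and no test was run over the genes. Named were each member with a called region (its nearest region and that of lowest p), members without one, and, of the 8 further genes of lowest p, all but 1 that is not reported here. No sequence was used here.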

Additional observations from a re-analysis of the deposited data

How the results depend on the processing

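Of 31 genes with a called region, 24 remained at an FDR under 0.01 (58.5%, against 32.8% of all genes). A window of 10000 bp gave 24 (58.5%, against 29.7%), a window of 100000 bp 35 (85.4%, against 64.4%) and all listed regions 39 (95.1%, against 79.7%). With each region given only to its nearest protein-coding gene there were 20 genes (48.8%, against 25.8%), and the median fold over both sets rose from 2.28 to 2.67. The 11 genes with a called region within 3000 bp of an end (26.8%, against 14.4% of all genes) became 5 within 1000 bp and 18 within 10000 bp. With all listed regions they became 21. For these changed rules the share of all genes was not computed, so the counts cannot be set against it. The set 1 share of member regions stayed between 84.6% and 93% over these settings, and placing regions by any overlap changed no count. Genes with a called set 2 region, 8, fell to 4 at an FDR under 0.01 (9.76%, against 2.57% of all genes). No paired analysis was possible because the table holds no value per library, and leaving out each library was not run for the same reason. Depth per region is unknown, and the assignment of the sets to the periods is not stated.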

Other observations

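Part of the count on chromosome 25 comes from 1 gene-rich stretch. *TSC2*, *MLST8* and *PDPK1*, whose regions span 585.3 kb there, together hold 39 listed and 11 called regions, of which 1, inside *TSC2*, is in set 2. Within this stretch 2 of the 11, both inside *TSC2*, had a member as the nearest protein-coding gene. The members with no other protein-coding gene in their windows were *SGK1*, *PHLPP1*, *IGF1*, *IRS2* and *PIK3R1*, which hold 5, 2, 0, 0 and 0 called regions. By gene *TSC2* holds 5, *PDPK1* 4 and *MLST8* 2.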
